A study of Homo sapiens with 45 samples.

Results

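The HOX genes encode homeodomain transcription factors and lie in chromosomal clusters named A to D. Their levels were followed in HEY and SKOV3, both ovarian cancer lines, and in PC3, a prostate cancer line. A gene was a member if its probe set on the array carried only 1 symbol and that symbol was HOXA, HOXB, HOXC or HOXD followed by a number, so antisense genes were left out. This gave 28 members: 1 of HOXA (HOXA2), 10 of HOXB (HOXB1 to HOXB9 and HOXB13), 9 of HOXC (HOXC4, HOXC5, HOXC6 and HOXC8 to HOXC13) and 8 of HOXD (HOXD1, HOXD4 and HOXD8 to HOXD13). The other HOXA genes and HOXD3 were not analysed here. The members were represented by 44 probe sets in all, of which the brightest for each gene over all arrays was used, and 15 members had 1 probe set. Of the 28 members, 26 passed the filter on low values and were among the 15599 genes tested. HOXC12, with a highest group mean of 3.66, and HOXD12, at 4.48, did not pass.

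The study asked how cancer cells of different origin differ in a miRNA-driven change from a mesenchymal towards an epithelial state. Arrays came from cells of each line that were untransfected, or that had received 33 nM of a miRNA precursor by lipid transfection 48 h earlier. The precursors were miR-203a, miR-205, miR-429 and a control named miR-NC. Each of these 15 groups was hybridised to 3 arrays, 45 in all, and the labels do not say whether the 3 came from separate cultures, so p-values measure the spread between these arrays. All levels are log2 intensities. All p-values come from 1 limma fit over the 15599 genes with Benjamini-Hochberg adjustment, two-sided, and a gene is described as called where its adjusted p was under 0.05.

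HOX proteins specify position along the body axis, and within a cluster the genes lie in the order in which they are used from head to tail. Their DNA binding is shared with PBX and MEIS cofactors, Polycomb proteins keep the clusters silent, and Trithorax proteins and retinoic acid open them. HOXB13, at the tail end of its cluster, is the HOX gene of the adult prostate epithelium and rectum. In the RefSeq annotation (GRCh38.p14) the start positions of the members followed the gene numbers in the HOXB, HOXC and HOXD clusters. HOXC4 and HOXC5 share a start, and HOXA, with HOXA2 alone, has no order to follow.

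The mature sequences of the transfected miRNAs are given here, from RefSeq (GRCh38.p14), because the seed, bases 2 to 8 in capitals, is the part with which a miRNA pairs to its targets. The labels name the miRNAs without an arm. The 3 seeds differ from each other.
hsa-miR-203a-3p: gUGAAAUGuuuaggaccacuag
hsa-miR-205-5p: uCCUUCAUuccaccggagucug
hsa-miR-429: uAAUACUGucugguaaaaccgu
They lie at chr14:104117469-104117490, chr1:209432166-209432187 and chr1:1169055-1169076, all on the plus strand. Target sites in HOX transcripts were not searched.

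Before levels are compared, some facts about the arrays bear on them. Genes specific to a line over the transfected arrays (at least 3 log2 units from the other lines, HOX genes left out) went against the labels of the untransfected arrays. Of 84 genes specific to SKOV3, 90.5% were on in the arrays labelled untransfected HEY, and 0 of 45 genes specific to HEY were. All 45 HEY genes, and 0 of 132 specific to PC3, were on where the label was untransfected PC3. The label untransfected SKOV3 had 32.1% of its own line's genes on and 41.7% of those of PC3. ERBB2, the receptor gene amplified in SKOV3, stood at 11.34 ± 0.08 (SD, n = 3) in SKOV3 with miR-NC, at 12.31 on the arrays labelled untransfected HEY and at 7.60 on those labelled untransfected SKOV3. The lines are therefore compared on their miR-NC arrays, and the untransfected arrays are described last, by label.

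The array's probe set at the 5′ end of GAPDH, a housekeeping gene, stood at 13.74 ± 0.01 (SD, n = 3) in SKOV3 with miR-NC, at 8.37 ± 0.29 in HEY and at 5.04 ± 1.18 in PC3. The gap between its 3′ and 5′ probe sets was 3.91 log2 units in HEY and 5.28 in PC3, and lay between -0.00 and 0.07 in the transfected SKOV3 groups. The part of this difference in the line differences was not tested. Of 6 ovarian and Müllerian markers on the array, 4 were tested. PAX8 averaged 10.42 in HEY, 10.73 in SKOV3 and 6.0 in PC3, and FOLR1 5.99, 8.64 and 6.96. WT1 averaged 10.31, 5.05 and 9.61, so it was bright in PC3, and MSLN 3.80, 4.73 and 3.35. The other ovarian markers, MUC16 and EMX2, lay under the median of all values with miR-NC in all lines. Of 4 prostate markers on the array, KLK2 (4.41), KLK3 (4.30) and FOLH1 (2.49) lay below the median of all values (4.89) in PC3. TMPRSS2 averaged 5.72 in PC3, 5.25 in SKOV3 and 3.61 in HEY, and KLK3 was brightest in SKOV3, at 6.87. That median is used as a floor: where the dimmer of a pair of means lay under it, the fold is a lower bound against it. In such bulk RNA, fewer cells with a transcript and less of it per cell cannot be told apart.

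With miR-NC, the HOX genes that were bright differed between the lines. HOXB2 to HOXB9 were lower in PC3 than in SKOV3, all of them called, and HOXB2, HOXB4, HOXB6, HOXB7 and HOXB8 differed at least 4-fold from both ovarian lines. HOXC4, HOXC6, HOXC9, HOXC10 and HOXC13 were higher in PC3 than in either ovarian line. HOXD4, HOXD8 and HOXD13 were highest in HEY, and HOXA2 and HOXC6 lay under the floor in SKOV3 and above it in HEY and PC3.

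Between SKOV3 and HEY, 19 of the 26 members tested were called, where 78.4% of all genes tested were called. Of them 11 were higher and 8 lower in SKOV3, beside 35% and 43.4% of all genes. Between PC3 and HEY, 24 were called against 56.6% of all genes, 9 higher and 15 lower in PC3, beside 25.5% and 31.1%. Between PC3 and SKOV3, 19 were called against 81.2% of all genes, 7 higher and 12 lower in PC3, beside 44.2% and 36.9%. A difference of at least 4-fold with no overlap of arrays was found for 5, 12 and 12 members in these comparisons, against 24.3%, 8.62% and 29.5% of all genes. The median difference of the members was 0.20, -0.94 and -0.41 log2 units, beside -0.13, -0.08 and 0.13 over all genes. The members' share of calls was thus near that of all genes, and a little below it, for SKOV3 against each other line. It was above that of all genes for PC3 against HEY. At 4-fold without overlap the members' share was above that of all genes for PC3 against both ovarian lines, and a little below for SKOV3 against HEY. The 3 comparisons share their arrays and are not independent of each other. HOXC9, HOXC10 and HOXC13, counted among the members higher in PC3, passed the filter only through transfected PC3 groups.

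**Figure D1:**
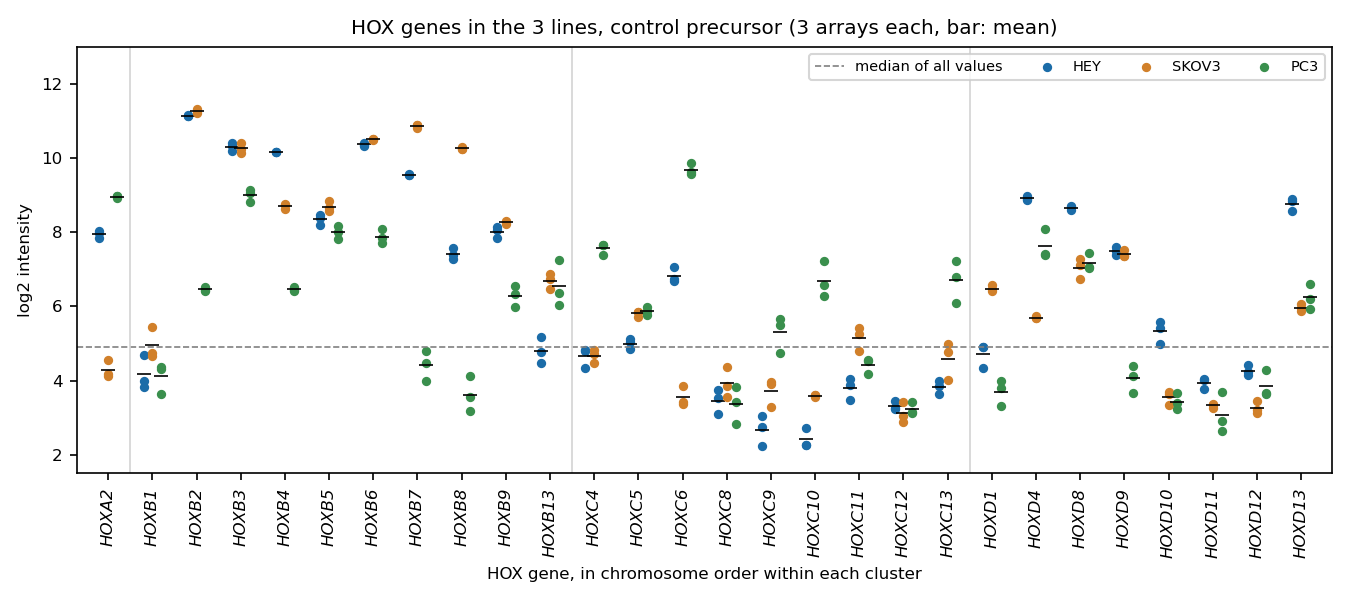
Level of the 28 HOX genes (log2 intensity, vertical axis) on the 3 miR-NC arrays of each line (points) with their mean (bar), in cluster order. For HOXB7 the PC3 points lie between 3.98 and 4.79 while HEY and SKOV3 lie at 9.54 and above, and the order is turned for HOXC6, where the lowest PC3 point is 9.57.

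The genes at the head end of the HOXB cluster pattern the hindbrain and neck. HOXB2, a hindbrain gene, read 11.14, 11.13 and 11.16 in HEY, 11.27, 11.23 and 11.32 in SKOV3 and 6.42, 6.52 and 6.45 in PC3. PC3 lay far below both ovarian lines, 25.7-fold below HEY (adjusted p = 1.2e-25) and 28.1-fold below SKOV3 (adjusted p = 2.0e-26). HOXB4, used to expand blood stem cells, read 10.17, 10.18 and 10.16 in HEY, 8.63, 8.73 and 8.76 in SKOV3 and 6.41, 6.45 and 6.52 in PC3. The lines stepped down in that order without overlap, and PC3 was 13.1-fold below HEY and 4.73-fold below SKOV3 (adjusted p = 1.6e-22 and 1.3e-16). HOXB3, a hindbrain gene, stepped down less, from 10.32 ± 0.11 (SD, n = 3) in HEY and 10.26 ± 0.14 in SKOV3 to 9.01 ± 0.16 in PC3. HOXB5 means were 8.35 in HEY, 8.69 in SKOV3 and 8.0 in PC3, all differences being called but below 2-fold. The dimmer HOXB5 probe set gave larger differences, 3.11 for SKOV3 minus HEY, -3.64 for PC3 minus SKOV3 and -0.53 for PC3 minus HEY (adjusted p = 2.8e-19, 1.7e-21 and 0.0056).

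The widest HOXB gaps between PC3 and SKOV3 were those of HOXB7 and HOXB8, in the middle of the cluster. HOXB7, reported to push cultured epithelial cells towards a mesenchymal state, read 9.56, 9.54 and 9.56 in HEY, 10.89, 10.91 and 10.81 in SKOV3 and 3.98, 4.48 and 4.79 in PC3. All PC3 arrays lay under the floor, so HOXB7 was at least 25.2-fold higher in HEY (adjusted p = 3.1e-22) and at least 62.8-fold higher in SKOV3 (adjusted p = 1.1e-25). Of its other 2 probe sets, 1 gave -4.51 for PC3 minus HEY and the other -1.0, and for PC3 minus SKOV3 they gave -5.81 and -5.65. HOXB8, a gene of immature myeloid cells, read 7.57, 7.28 and 7.38 in HEY, 10.25, 10.31 and 10.26 in SKOV3 and 4.13, 3.56 and 3.17 in PC3. SKOV3 was 7.28-fold above HEY (adjusted p = 4.6e-14) and at least 41.6-fold above PC3 (adjusted p = 7.8e-25), without overlap. HOXB6, a neighbour of HOXB7, read 10.35, 10.34 and 10.42 in HEY, 10.53, 10.51 and 10.50 in SKOV3 and 7.72, 7.85 and 8.08 in PC3. PC3 was 5.61-fold below HEY (adjusted p = 1.3e-21) and 6.19-fold below SKOV3 (adjusted p = 7.3e-23), but the dimmer HOXB6 probe set gave a PC3 minus HEY difference of -0.21 (adjusted p = 0.41). HOXB9, a gene of the thoracic skeleton, stood at 8.01 ± 0.15 (SD, n = 3) in HEY and 8.26 ± 0.04 in SKOV3 and at 6.29 ± 0.28 in PC3, 3.30-fold and 3.93-fold lower (adjusted p = 8.3e-12 and 5.4e-14). The dimmer HOXB9 probe set set the ovarian lines further apart, at 4.90 in HEY and 6.96 in SKOV3, with 3.81 in PC3. The brightest probe sets of HOXB5, HOXB6, HOXB7, HOXB8, HOXC6, HOXC13 and HOXD1 are of the kind marked _s_at, which can bind more than 1 related transcript.

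HOXB13, separated from the rest of its cluster by a long gap, overlapped between PC3 and SKOV3 with miR-NC. It read 5.19, 4.47 and 4.77 in HEY, 6.88, 6.47 and 6.73 in SKOV3 and 6.04, 6.37 and 7.26 in PC3. The PC3 minus SKOV3 difference was -0.14 (95% interval -0.60 to 0.33), and both lines lay above HEY, PC3 by at least 3.17-fold and SKOV3 by at least 3.49-fold (adjusted p = 3.6e-08 and 2.7e-09). The other HOXB13 probe set gave -1.0 for PC3 minus SKOV3 (adjusted p = 6.6e-04). With the miRNA precursors the 2 lines did not overlap: PC3 averaged 8.19 with miR-203a, 7.19 with miR-205 and 5.36 with miR-429, where SKOV3 averaged 6.38, 6.27 and 6.24. PRAC1, the gene beside HOXB13 that is known from prostate and distal colon, read 9.86, 9.71 and 9.88 in PC3. It stood at 3.60 in HEY and 3.25 in SKOV3, so PC3 was at least 30.4-fold higher than either (adjusted p = 1.9e-26 and 1.4e-27). HOXB1, an early hindbrain gene, averaged 4.17 with miR-NC in HEY, 4.96 in SKOV3 and 4.11 in PC3. The other HOXB1 probe set ordered the lines otherwise, at 4.95 in HEY, 4.10 in SKOV3 and 5.21 in PC3.

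Of the HOXC genes, HOXC4, HOXC6, HOXC9, HOXC10 and HOXC13 ran the other way, and the rest did not. HOXC6, which is raised in prostate tumours, read 6.67, 7.07 and 6.73 in HEY, 3.38, 3.41 and 3.85 in SKOV3 and 9.87, 9.57 and 9.64 in PC3. The lines did not overlap, and PC3 was 7.31-fold above HEY (adjusted p = 2.2e-17) and at least 27.8-fold above SKOV3 (adjusted p = 9.8e-28). HOXC4, at the head end of the cluster, read 4.33, 4.80 and 4.83 in HEY, 4.46, 4.72 and 4.81 in SKOV3 and 7.38, 7.67 and 7.66 in PC3. Only PC3 rose above the floor on these arrays, by at least 6.38-fold (adjusted p = 5.3e-16 against HEY and 1.4e-16 against SKOV3). HOXC10, a gene of lumbar motor neurons, read 2.26, 2.72 and 2.27 in HEY, 3.61, 3.54 and 3.60 in SKOV3 and 6.58, 6.27 and 7.23 in PC3. It too was above the floor in PC3 alone among the miR-NC arrays, at least 3.48-fold (adjusted p = 1.0e-21 against HEY and 3.6e-18 against SKOV3).

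HOXC13, a gene of hair and nail, read 3.98, 3.64 and 3.86 in HEY, 4.03, 4.78 and 4.98 in SKOV3 and 6.79, 7.23 and 6.10 in PC3. PC3 was at least 3.51-fold higher than HEY and at least 3.51-fold higher than SKOV3 (adjusted p = 3.7e-13 and 2.6e-10). HOXC9, a gene of the trunk, read 2.74, 3.04 and 2.23 in HEY, 3.28, 3.91 and 3.96 in SKOV3 and 5.50, 4.75 and 5.66 in PC3. Its PC3 mean lay just above the floor, so the bound was at least 1.33-fold although the fitted difference from HEY was 2.63 log2 units (adjusted p = 3.8e-14). HOXC5, next to HOXC4, averaged 5.0 in HEY, 5.81 in SKOV3 and 5.87 in PC3. HOXC8, HOXC11 and HOXC12 had miR-NC means below the floor in every line, apart from HOXC11 in SKOV3 at 5.16.

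HOXA2, which patterns the hindbrain and the branchial arches, read 7.98, 7.85 and 8.03 in HEY, 4.57, 4.18 and 4.11 in SKOV3 and 8.97, 8.98 and 8.94 in PC3. SKOV3 lay under the floor on all arrays, at least 8.33-fold below HEY (adjusted p = 4.4e-23) and at least 16.8-fold below PC3 (adjusted p = 2.3e-26). PC3 was 2.02-fold above HEY (adjusted p = 1.1e-07).

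The HOXD genes at the tail end of the cluster pattern limbs and genital tract. HOXD4, a gene of the neck vertebrae, read 8.97, 8.88 and 8.89 in HEY, 5.68, 5.73 and 5.70 in SKOV3 and 8.08, 7.43 and 7.40 in PC3. HEY was highest and SKOV3 lowest without overlap, 9.28-fold apart (adjusted p = 9.2e-17), but the dimmer HOXD4 probe set gave SKOV3 minus HEY as 0.95 and PC3 minus SKOV3 as -1.78, in the opposite directions. HOXD13, which shapes the digits, read 8.83, 8.58 and 8.91 in HEY, 5.87, 6.06 and 5.94 in SKOV3 and 6.62, 5.94 and 6.19 in PC3. HEY was 7.05-fold above SKOV3 (adjusted p = 8.0e-18) and 5.75-fold above PC3 (adjusted p = 6.1e-16). Of the other 2 HOXD13 probe sets, 1 gave -0.93 and -2.78 for SKOV3 and PC3 minus HEY, and the other gave 1.81 and 0.46, in the opposite direction.

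HOXD9, a gene of the limb and trunk, read 7.49, 7.38 and 7.61 in HEY, 7.52, 7.36 and 7.36 in SKOV3 and 4.12, 4.38 and 3.67 in PC3. The ovarian lines overlapped, with a SKOV3 minus HEY difference of -0.08 (95% interval -0.35 to 0.18), and PC3 was at least 6.06-fold below HEY (adjusted p = 1.0e-22) and at least 5.72-fold below SKOV3 (adjusted p = 6.7e-23). HOXD1, which acts in sensory neurons, read 4.34, 4.90 and 4.91 in HEY, 6.46, 6.58 and 6.40 in SKOV3 and 3.98, 3.80 and 3.31 in PC3. SKOV3 lay above both other lines, at least 3.0-fold above PC3 (adjusted p = 8.1e-14) and at least 3.0-fold above HEY (adjusted p = 7.7e-09). HOXD8 was 3.08-fold lower in SKOV3 and 2.78-fold lower in PC3 than in HEY, where it stood at 8.66 ± 0.06 (SD, n = 3). HOXD10, a known target of miR-10b, had a mean of 5.33 in HEY and lay under the floor in the other lines, and HOXD11 and HOXD12 lay under it in all 3.

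The range of the miR-NC means over the lines exceeded the largest range over treatments within a line for 21 of the 26 members tested, beside 56.9% of all genes. The median ranges of the members were 2.71 and 1.18 log2 units, beside 1.49 and 1.31 over all genes. All 12 transfected HEY arrays lay above all 12 transfected PC3 arrays for 10 of the 26 members (HOXB2 to HOXB9, HOXD9 and HOXD13), beside 6.01% of all genes. They lay below for 5 (HOXC4, HOXC6, HOXC9, HOXC10 and HOXC13), beside 10.6%. SKOV3 lay above PC3 in this way for 10 members (HOXB2 to HOXB9, HOXD1 and HOXD9), beside 21.6%, and below for 6 (HOXA2 and the same HOXC genes), beside 28.8%. HOXC9, HOXC10 and HOXC13 passed the filter only through transfected PC3 groups, so their place in these counts is no independent support. HEY lay above SKOV3 for 5 members and below for 5, beside 20.5% and 16.6%.

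RefSeq promoter sequences (GRCh38.p14, the 250 bases before the gene's start) were at hand for 11 of the 28 members. Those of HOXA2, HOXC4, HOXD4, HOXD8 and HOXD13 are shown because these genes set the lines apart or, in the case of HOXD8, responded to miR-205 in opposite directions. Capitals mark matches, on either strand, to motifs known for PBX-HOX pairs (letters TGATNNAT), TBP (letters TATAAA), NF-Y (letters CCAAT) and SP/KLF factors (letters GGGCGG), which may overlap. These motifs occur in 6.47%, 10.7%, 32.0% and 42.6% of 35116 promoters of this length.
HOXA2 (chr7:27102684-27102933, minus strand): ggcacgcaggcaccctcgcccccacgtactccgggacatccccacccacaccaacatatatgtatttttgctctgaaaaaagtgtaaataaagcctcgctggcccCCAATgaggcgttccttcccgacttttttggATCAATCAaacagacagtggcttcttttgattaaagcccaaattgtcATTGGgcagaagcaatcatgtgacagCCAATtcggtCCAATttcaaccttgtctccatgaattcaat
HOXC4 (chr12:54016638-54016887, plus strand): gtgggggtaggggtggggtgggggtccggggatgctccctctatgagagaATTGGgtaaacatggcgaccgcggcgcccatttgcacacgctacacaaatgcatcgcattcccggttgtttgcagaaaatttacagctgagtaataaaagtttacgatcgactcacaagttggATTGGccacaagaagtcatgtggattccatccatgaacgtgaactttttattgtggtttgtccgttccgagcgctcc
HOXD4 (chr2:176151300-176151549, plus strand): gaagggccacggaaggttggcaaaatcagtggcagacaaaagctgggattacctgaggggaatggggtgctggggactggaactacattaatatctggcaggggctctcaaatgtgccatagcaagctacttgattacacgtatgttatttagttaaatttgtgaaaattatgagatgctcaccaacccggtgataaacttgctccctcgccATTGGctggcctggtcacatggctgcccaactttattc
HOXD8 (chr2:176129455-176129704, plus strand): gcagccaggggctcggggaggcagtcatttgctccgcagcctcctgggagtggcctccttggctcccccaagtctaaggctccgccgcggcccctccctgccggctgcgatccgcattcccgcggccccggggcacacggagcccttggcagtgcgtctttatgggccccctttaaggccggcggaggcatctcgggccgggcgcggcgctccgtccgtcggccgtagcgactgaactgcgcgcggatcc
HOXD13 (chr2:176092471-176092720, plus strand): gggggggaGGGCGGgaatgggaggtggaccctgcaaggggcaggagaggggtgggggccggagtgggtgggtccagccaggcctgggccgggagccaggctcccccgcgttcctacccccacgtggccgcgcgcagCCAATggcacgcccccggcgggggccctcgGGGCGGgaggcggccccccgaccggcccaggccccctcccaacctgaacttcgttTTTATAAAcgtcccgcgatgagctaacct
HOXA2 held 1 PBX-HOX match and 4 NF-Y matches, HOXC4 held 2 NF-Y matches and HOXD4 held 1. HOXD13 held 2 overlapping TBP matches, 1 NF-Y match and 2 SP/KLF matches, and no match was found in HOXD8. The number of CpG sites was 28 for HOXD8, 21 for HOXD13, 14 for HOXC4, 8 for HOXA2 and 4 for HOXD4, where all promoters had a median of 11 and quartiles of 3 and 23. HOXC5 shares the HOXC4 window, since RefSeq starts both genes at 1 point. These matches describe letters only.

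The members called with each precursor are given by line, beside the share of all genes. In HEY, 4 of 26 members were called with miR-203a, 3 higher and 1 lower, beside 13.2% of all genes (5.82% higher and 7.33% lower). With miR-205 15 were called, 4 higher and 11 lower, beside 65.8% (33.6% higher and 32.2% lower). With miR-429 13 were called, 5 higher and 8 lower, beside 56.8% (21% higher and 35.7% lower). The median change of the members was 0.04, -0.06 and -0.14 log2 units, beside 0.01, 0.06 and -0.15 over all genes. At least 2-fold changes without overlap numbered 0, 8 and 4, beside 2.43%, 33.2% and 21.7% of all genes. The 5′ GAPDH probe set stood at 8.37 with miR-NC, 8.95 with miR-203a, 12.28 with miR-205 and 6.25 with miR-429 in HEY, and its part in these changes was not tested. The changes share the miR-NC arrays of the line.

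HOXC6 fell in HEY with all 3 precursors. From 6.67, 7.07 and 6.73 with miR-NC it read 6.03, 6.18 and 6.30 with miR-203a, 5.08, 5.23 and 5.28 with miR-205, and 4.81, 4.83 and 5.13 with miR-429. No precursor array overlapped the controls, and the falls were 1.57-fold, 3.09-fold and 3.73-fold (adjusted p = 0.0056, 7.8e-11 and 5.2e-12). HOXB5, a gene of vessels and gut neurons, rose with all 3. It read 8.20, 8.47 and 8.39 with miR-NC, 9.11, 9.10 and 9.10 with miR-203a, 9.68, 9.62 and 9.47 with miR-205, and 9.08, 9.37 and 9.31 with miR-429. These arrays lay above every control, by 1.68-fold, 2.35-fold and 1.87-fold (adjusted p = 1.2e-05, 8.9e-12 and 2.4e-08).

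HOXB7 rose in HEY with miR-205 and miR-429. From 9.56, 9.54 and 9.56 it read 10.80, 10.48 and 10.46 with miR-205 and 10.47, 10.37 and 10.55 with miR-429. All of these lay above the controls, by 2.04-fold and 1.88-fold (adjusted p = 3.5e-05 and 2.5e-04). HOXB8 fell with the same precursors, from 7.57, 7.28 and 7.38 to 6.11, 6.07 and 6.52 with miR-205 and 5.90, 5.98 and 6.13 with miR-429. The falls were 2.26-fold and 2.65-fold (adjusted p = 2.0e-05 and 1.8e-06), whereas the other HOXB8 probe set gave 0.33 and 0.25 log2 units, in the opposite direction and not called (adjusted p = 0.052 and 0.15).

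HOXB2 fell in HEY with miR-205, to 9.15, 9.14 and 9.43 from 11.14, 11.13 and 11.16. This 3.74-fold fall (adjusted p = 4.8e-14) left it above every transfected PC3 array. HOXD9 rose 1.58-fold with miR-203a (adjusted p = 4.8e-04) and fell with miR-429, where it read 5.69, 5.66 and 5.67 against 7.49, 7.38 and 7.61 in the controls. The fall was 3.54-fold (adjusted p = 5.8e-14). HOXD10 dropped under the floor with miR-205 (3.12, 3.80 and 3.92) and miR-429 (3.82, 3.03 and 4.31), at least 1.35-fold below controls of 5.42, 5.59 and 4.98 (adjusted p = 1.7e-07 and 9.6e-07). Neither of its other probe sets was called: the first gave -0.42 and 0.40, and the other -0.24 and -0.48.

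HOXD4 fell 2.21-fold with miR-205 and 1.99-fold with miR-429 in HEY (adjusted p = 6.0e-06 and 7.3e-05), but its dimmer probe set moved the opposite way, by 0.73 (adjusted p = 0.0036) and 0.29 (adjusted p = 0.26). HOXD1 fell by 1.01 log2 units with miR-205, both means being under the floor. The other called HEY changes were below 2-fold. HOXB9 and HOXC5 rose and HOXD8 and HOXD13 fell with both miR-205 and miR-429, and HOXA2 and HOXB3 fell with miR-205. HOXB4 fell 1.28-fold with miR-429. HOXB6 rose 1.36-fold with miR-203a and fell 1.22-fold with miR-205.

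**Figure D2:**
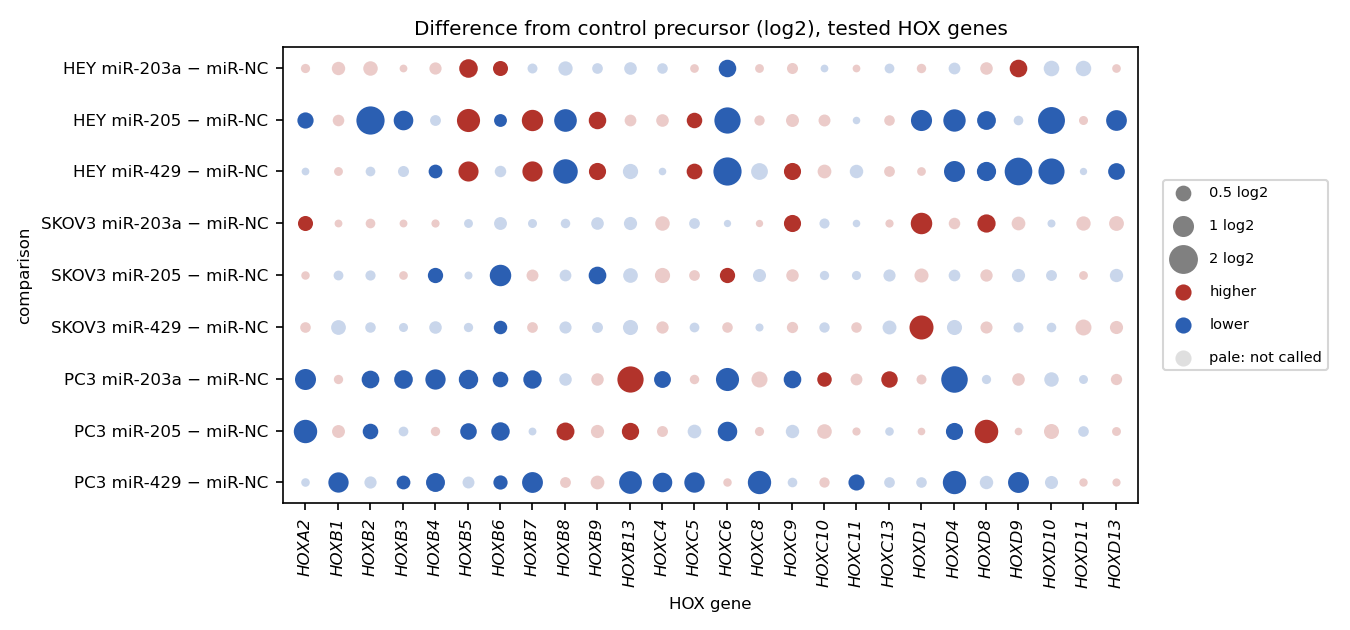
Difference from miR-NC (log2) for the 26 tested HOX genes (horizontal axis) in each line and precursor (rows), with red for higher, blue for lower, circle area growing with the size of the difference and pale circles for genes not called. HEY with miR-205 and miR-429 and the 3 PC3 rows hold most called genes, and the SKOV3 rows hold 4, 4 and 2.

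In SKOV3 the called members numbered 4 with miR-203a, 4 with miR-205 and 2 with miR-429, beside 11.9%, 25.6% and 22.1% of all genes. A fit of SKOV3 alone gave 8, 8 and 6 members. The shares of all genes in that fit are not given here, so these counts have no background beside them. With miR-203a 4 were higher and 0 lower, beside 7.06% and 4.88% of all genes. With miR-205 1 was higher and 3 were lower, beside 16.8% and 8.81%, and with miR-429 1 was higher and 1 lower, beside 14.9% and 7.18%. With each precursor 1 member changed at least 2-fold without overlap, beside 2.32%, 4.92% and 4.27% of all genes. With quantile normalization the splits became 4 higher and 1 lower, 2 and 4, and 1 and 2, and with array medians subtracted miR-205 gave 2 and 3. Shares of all genes under these scalings are not given here. The count for miR-203a was 2 without SKOV3 miR-NC replicate 1 or without miR-203a replicate 1. The count for miR-429 was 1 without miR-NC replicate 1, or without miR-429 replicate 1 or 3. The 5′ GAPDH probe set stood between 13.70 and 13.75 in all 4 transfected SKOV3 groups.

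HOXD1 was the member with the largest called change in SKOV3. It read 6.46, 6.58 and 6.40 with miR-NC, 7.41, 7.48 and 7.69 with miR-203a, 6.83, 6.83 and 6.90 with miR-205, and 7.86, 7.76 and 7.85 with miR-429. The rises with miR-203a (2.07-fold, adjusted p = 9.1e-04) and miR-429 (2.54-fold, adjusted p = 1.9e-05) were called, without overlap with the controls, and the difference with miR-205 was not (adjusted p = 0.24). HOXB6 fell with miR-205 from 10.53, 10.51 and 10.50 to 9.48, 9.47 and 9.45. The groups were far apart for their spread, and the fall was 2.07-fold (adjusted p = 6.5e-10). HOXB6 fell 1.26-fold with miR-429, HOXB4 and HOXB9 fell 1.38-fold and 1.59-fold with miR-205, and HOXD8 rose 1.65-fold with miR-203a. The called rises of HOXA2 and HOXC9 with miR-203a and of HOXC6 with miR-205 lay under the floor.

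In PC3, 14 of 26 members were called with miR-203a, 3 higher and 11 lower, beside 56.1% of all genes (31.1% higher and 25% lower). With miR-205 9 were called, 3 higher and 6 lower, beside 48.4% (28.7% higher and 19.7% lower). With miR-429 12 were called, all of them lower, beside 46% of all genes (16.3% higher and 29.7% lower). Among these 12, HOXB1, HOXB7, HOXC8, HOXC11 and HOXD9 had both means under the floor. The median change of the members was -0.18, 0.02 and -0.32 log2 units, beside 0.06, 0.05 and -0.13 over all genes. The medians of the PC3 miR-429 arrays lay low, at 4.49 to 4.51, and the split depended on scaling: 3 higher and 8 lower after quantile normalization, and 6 higher and 8 lower with array medians subtracted. For miR-203a each of these scalings gave 1 higher and 11 lower. The shares of all genes under these scalings are not given here, so the rescaled splits have no background beside them. At least 2-fold changes without overlap numbered 3, 2 and 3, beside 20.8%, 16.2% and 10% of all genes. The 5′ GAPDH probe set stood at 5.04 with miR-NC, 9.99 with miR-203a, 8.70 with miR-205 and 4.54 with miR-429 in PC3, and its part in these changes was not tested.

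HOXB13 rose in PC3 with miR-203a and fell with miR-429. From 6.04, 6.37 and 7.26 with miR-NC it read 8.38, 8.07 and 8.11 with miR-203a, 7.22, 7.37 and 6.98 with miR-205, and 5.54, 5.70 and 4.85 with miR-429. The miR-203a arrays lay above the controls and the miR-429 arrays below, with a 3.09-fold rise (adjusted p = 2.0e-07) and a 2.29-fold fall (adjusted p = 6.9e-05). The miR-205 arrays overlapped the controls, with a called 1.55-fold rise (adjusted p = 0.022). The other HOXB13 probe set gave 1.68, 1.08 and -1.04 log2 units, in the same directions. Its neighbour PRAC1 read 10.88, 10.95 and 10.91 with miR-203a, 2.14-fold above the controls (adjusted p = 2.8e-06).

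HOXD4 fell in PC3 with all 3 precursors. From 8.08, 7.43 and 7.40 it read 6.11, 5.78 and 6.02 with miR-203a, 7.01, 6.64 and 7.39 with miR-205, and 6.99, 5.98 and 6.14 with miR-429. The falls were 3.17-fold, 1.54-fold and 2.40-fold (adjusted p = 1.1e-08, 0.011 and 5.5e-06), but the dimmer probe set gave 0.30, 0.54 and -0.18 log2 units (adjusted p = 0.25, 0.04 and 0.51). HOXC6 fell with miR-203a and miR-205, from 9.87, 9.57 and 9.64 to 8.27, 8.60 and 8.51 and to 8.72, 8.76 and 9.07. These falls were 2.35-fold and 1.79-fold (adjusted p = 7.9e-08 and 6.1e-05). With miR-429 HOXC6 read 9.75, 9.74 and 9.74, a difference of 0.05 that was not called.

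HOXA2 fell in PC3 from 8.97, 8.98 and 8.94 to 7.80, 7.99 and 8.12 with miR-203a and 7.76, 7.63 and 7.70 with miR-205. The falls were 1.99-fold and 2.41-fold (adjusted p = 2.0e-07 and 2.0e-09). HOXD8 moved up with miR-205, from 7.43, 7.07 and 7.05 to 8.26, 8.50 and 8.63, a 2.43-fold rise (adjusted p = 4.0e-07). HOXC8, a gene of the trunk, read 2.49, 2.0 and 1.82 with miR-429 against 3.42, 2.83 and 3.84 in the controls, all of them under the floor, so no fold is given. HOXC8 passed the filter only through the arrays labelled untransfected SKOV3, and HOXD11 only through those labelled untransfected PC3. With miR-203a HOXB2, HOXB3, HOXB4, HOXB5 and HOXB6 fell by 1.59-fold, 1.69-fold, 1.89-fold, 1.78-fold and 1.41-fold. HOXC4 and HOXC5 fell 1.80-fold and 1.91-fold with miR-429.

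PC3 with miR-205 and PC3 with miR-203a were compared directly. Of 26 members 11 were called, 8 higher and 3 lower with miR-205, beside 24.8% of all genes. With quantile normalization 8 were higher and 1 lower, and with array medians subtracted 9 were higher and 1 lower. The shares of all genes higher and lower are not given here, so these splits are not read as particular to the members. HOXD8 was 2.58-fold, HOXD4 2.06-fold and HOXB4 2.01-fold higher with miR-205 (adjusted p = 4.8e-07, 1.7e-04 and 1.5e-06), although the dimmer HOXD4 probe set gave 0.24 (adjusted p = 0.49). HOXB13 was 1.99-fold lower (adjusted p = 0.0012).

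Whether a response differed between the lines was tested by a moderated F-test in the same limma fit. It was called for 13 of 26 members with miR-203a, 17 with miR-205 and 15 with miR-429, beside 44.9%, 69.6% and 66.5% of all genes, so the share of members was near that of all genes. HOXB5 with miR-205 changed by 1.24 in HEY, -0.03 in SKOV3 and -0.57 in PC3 (adjusted p = 2.5e-11). HOXD8 with miR-205 changed by -0.77 in HEY, 0.26 in SKOV3 and 1.28 in PC3 (adjusted p = 9.3e-08), so it fell in HEY and rose in PC3. HOXB13 with miR-203a gave -0.28 in HEY, -0.31 in SKOV3 and 1.63 in PC3 (adjusted p = 4.0e-06), a rise called in PC3 alone among the lines. HOXD1 with miR-429 gave 0.06 in HEY, 1.34 in SKOV3 and -0.16 in PC3 (adjusted p = 1.9e-04).

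Noncoding genes of the clusters had line differences of their own. HOTAIR, a long RNA from the HOXC cluster that binds Polycomb proteins, read 2.99, 2.88 and 2.89 in HEY, 2.25, 2.24 and 2.25 in SKOV3 and 7.64, 7.68 and 7.66 in PC3. PC3 stood apart, at least 6.82-fold higher than either ovarian line (adjusted p = 3.8e-25 and 2.8e-27). In PC3 HOTAIR read 6.15, 5.74 and 6.37 with miR-203a and 6.44, 6.33 and 6.64 with miR-205. It fell 2.99-fold and 2.29-fold (adjusted p = 5.6e-11 and 3.4e-08). HOXB-AS3, antisense in the HOXB cluster, stood at 5.75 in HEY, 7.72 in SKOV3 and 3.12 in PC3. HAGLR of the HOXD cluster stood at 9.56, 7.46 and 7.09. In HEY, HOXB-AS3 rose 3.22-fold with miR-205 (adjusted p = 4.2e-07). The shares of all genes called between the lines (78.4%, 56.6% and 81.2%) are the background for the counts of the lists. Of 9 noncoding genes tested, 2 were higher and 3 lower in SKOV3 than in HEY, 2 higher and 5 lower in PC3 than in HEY, and 2 higher and 4 lower in PC3 than in SKOV3. Among 11 flanking genes tested the counts were 5 higher and 4 lower, 3 higher and 2 lower, and 5 higher and 3 lower, in the same order.

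**Figure D3:**
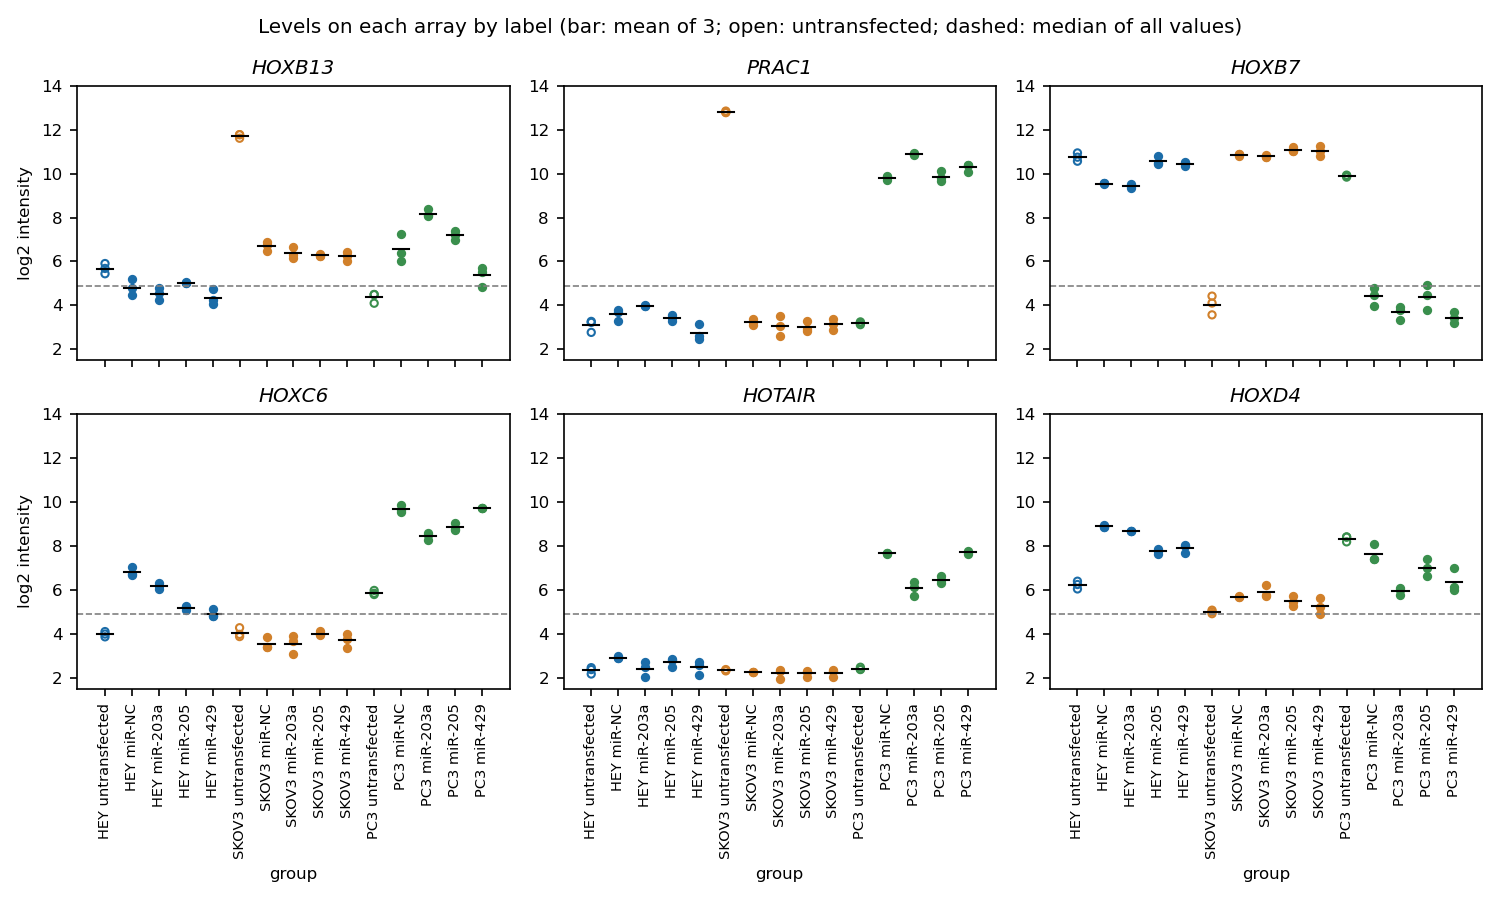
Level (log2 intensity) of HOXB13, its neighbour PRAC1, HOXB7, HOXC6, the noncoding HOTAIR and HOXD4 on each of 3 arrays in the 15 labelled groups, with the mean as a bar and open points for untransfected arrays. HOXB13 and PRAC1 peak on the arrays labelled untransfected SKOV3, where HOXB13 has a mean of 11.73, and HOTAIR is bright in the transfected PC3 groups.

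PBX and MEIS proteins bind DNA together with HOX proteins. Of 8 HOX cofactors tested, 3 were higher and 3 lower in SKOV3 than in HEY, 1 higher and 4 lower in PC3 than in HEY, and 3 higher and 5 lower in PC3 than in SKOV3. MEIS3 was 3.64-fold higher in SKOV3 than in HEY, PBX3 was 2.97-fold lower in PC3 than in HEY, and MEIS2 was 2.80-fold higher in PC3 than in SKOV3 (adjusted p = 2.6e-11, 1.9e-10 and 5.9e-14). In SKOV3, MEIS2 fell 2.38-fold with miR-203a, from 8.59 ± 0.10 to 7.34 ± 0.14 (SD, n = 3, limma adjusted p = 4.4e-10). In HEY, PBX3 fell 3.04-fold with miR-205 and MEIS1 fell 2.81-fold with miR-429 (adjusted p = 8.0e-11 and 2.7e-06).

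Among 12 Polycomb genes tested, 3 were higher and 7 lower in SKOV3 than in HEY, 3 higher and 5 lower in PC3 than in HEY, and 6 higher and 5 lower in PC3 than in SKOV3. EZH2, the histone methyltransferase of Polycomb, was 4.74-fold lower in SKOV3 than in HEY and 7.28-fold higher in PC3 than in SKOV3 (adjusted p = 9.8e-12 and 1.2e-14). Of 11 Trithorax and activator genes, 4 were higher and 6 lower, 2 higher and 3 lower, and 7 higher and 3 lower in the same comparisons. In HEY with miR-205, SUZ12, a core Polycomb subunit, fell 3.65-fold, and KDM6A, which removes the Polycomb mark, fell at least 5.34-fold (adjusted p = 1.7e-12 and 1.6e-17).

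In the retinoic acid pathway, whose ligand switches on HOX genes in the embryo, 12 genes were tested. Of these, 5 were higher and 3 lower in SKOV3 than in HEY, 3 higher and 3 lower in PC3 than in HEY, and 4 higher and 5 lower in PC3 than in SKOV3. ALDH1A3, which makes retinoic acid, stood at 11.66 in HEY, 6.83 in SKOV3 and 12.13 in PC3, so SKOV3 was 28.5-fold below HEY and 39.6-fold below PC3 (adjusted p = 1.2e-28 and 7.1e-30). In SKOV3 it rose from 6.76, 6.87 and 6.85 to 8.02, 8.20 and 8.19 with miR-203a, 9.38, 9.45 and 9.45 with miR-205, and 9.29, 8.87 and 8.83 with miR-429. These rises were 2.48-fold, 6.07-fold and 4.51-fold (adjusted p = 1.7e-10, 3.9e-18 and 3.5e-16). RARB, a retinoic acid receptor, was at least 6.53-fold lower in SKOV3 than in HEY (adjusted p = 5.3e-14). CRABP2, which carries retinoic acid to the nucleus, rose 4.86-fold with miR-203a and 4.82-fold with miR-205 in PC3 (adjusted p = 6.9e-12 and 1.1e-11). Of 5 CDX and ParaHox genes tested, 2 were higher and 1 lower in SKOV3 than in HEY, 2 were lower in PC3 than in HEY and 3 lower in PC3 than in SKOV3.

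The arrays labelled untransfected did not carry the HOX levels of their own line. Over the 28 members, the arrays labelled untransfected HEY differed from miR-NC means by 1.15 log2 units on average for HEY, 0.45 for SKOV3 and 2.17 for PC3, and lay within 1 log2 unit of the SKOV3 mean for 26 members. Those labelled untransfected PC3 differed by 0.56 from HEY, 1.21 from SKOV3 and 2.02 from PC3. Those labelled untransfected SKOV3 lay at 2.64, 2.08 and 2.0 log2 units from HEY, SKOV3 and PC3, far from each. By label, miR-NC and untransfected arrays differed for 21 members in HEY, 20 in SKOV3 and 24 in PC3, beside 83.4%, 72.7% and 77% of all genes, and transfection and what sets the labelled arrays apart cannot be told apart in these counts.

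**Figure D4:**
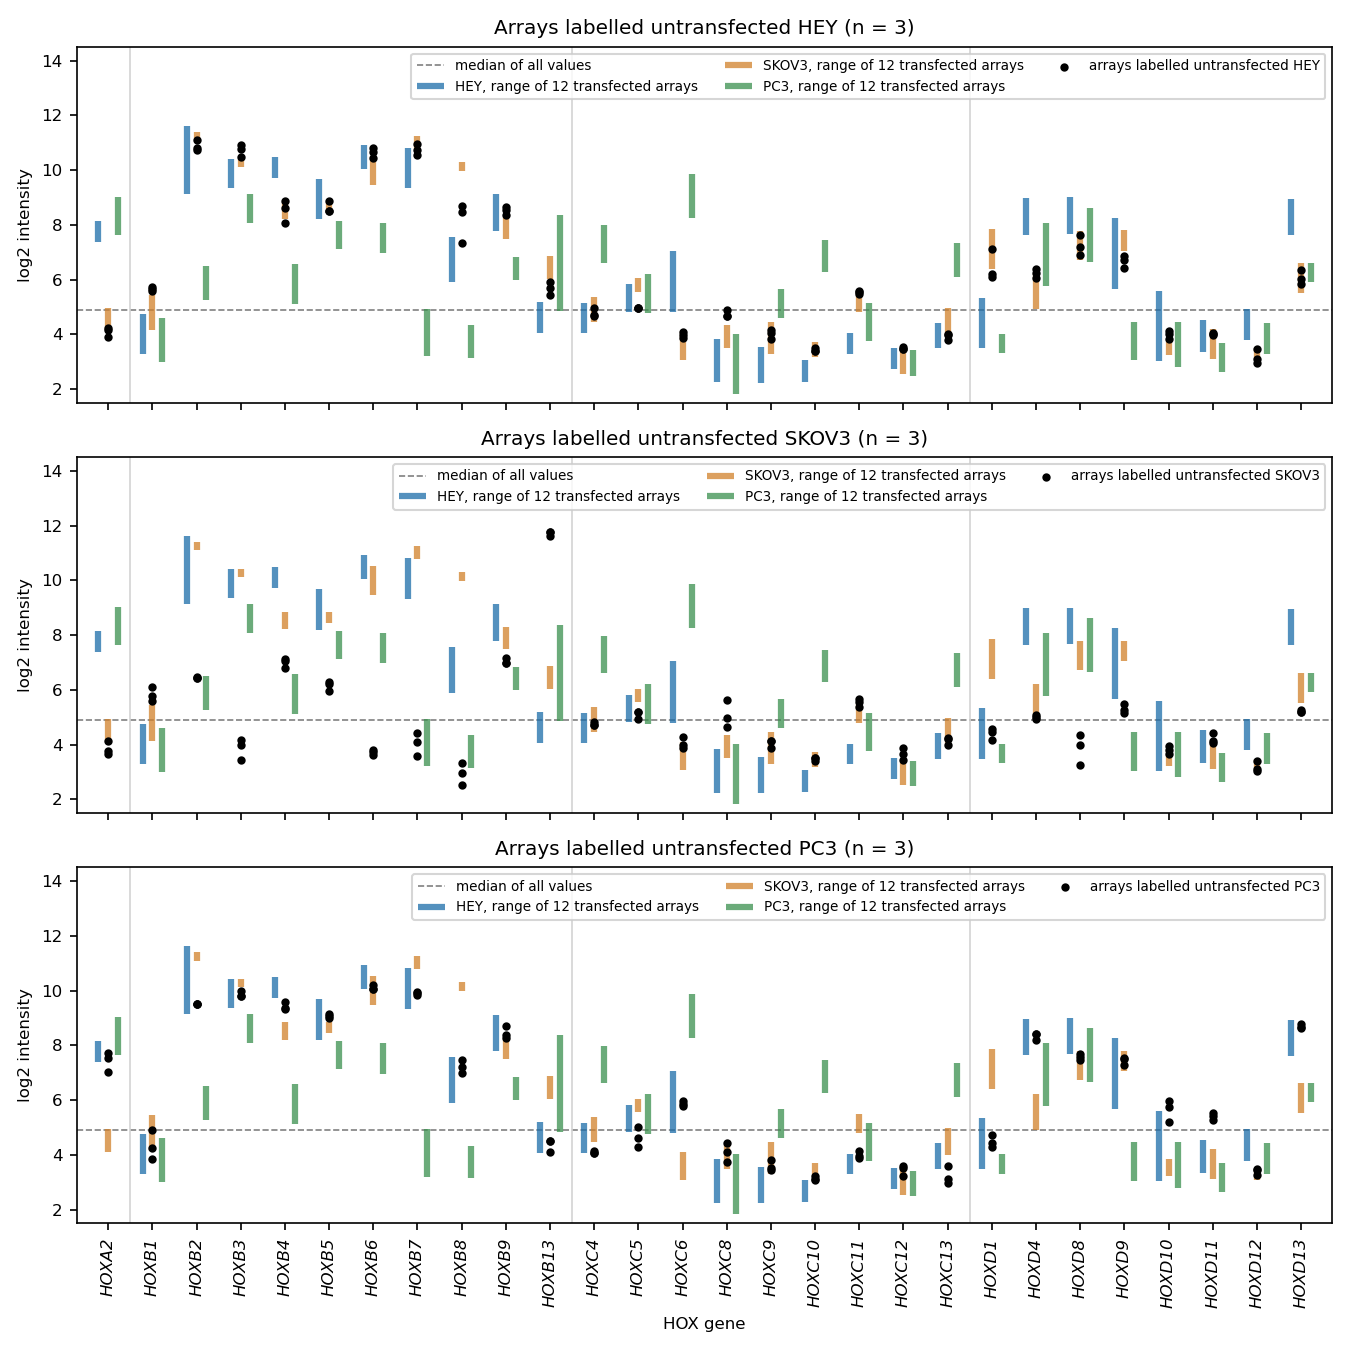
Level (log2 intensity) of the 28 HOX genes on the 3 arrays labelled untransfected of each line (black points, 1 panel per label) over the range of the 12 transfected arrays of HEY, SKOV3 and PC3 (coloured bars). The mean labelled HEY lies inside the SKOV3 bar for 11 of 28 genes and inside the HEY bar for 12, the mean labelled PC3 lies inside the HEY bar for 18, and the points labelled SKOV3 leave all bars at HOXB13, HOXB3, HOXB5, HOXB6 and HOXD8, among others.

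By their brightest probe sets, HOXB13 and HOXB3 stood well outside the transfected arrays. On the arrays labelled untransfected SKOV3 HOXB13 read 11.62, 11.78 and 11.78, against 8.38 on the highest of the 36 transfected arrays, and its other probe set gave a mean of 11.70. PRAC1 read 12.86, 12.80 and 12.79 there. On the same arrays HOXB3 (mean 3.85), HOXB5 (6.15), HOXB6 (3.73), HOXD8 (3.87) and HOXD13 (5.20) lay below every transfected array by their brightest probe sets. HOXB1 (5.83) and HOXC8 (5.08) lay above, and HOXC8 passed the filter only through these arrays. Other probe sets of HOXB3 (5.47), HOXB5 (4.38), HOXB6 (4.26) and HOXD13 (4.54) lay inside the range of their transfected group means. Another HOXD13 probe set (2.67) and the other HOXB1 probe set (3.39) lay below theirs.

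HOXB7 read 4.11, 4.42 and 3.57 on the arrays labelled untransfected SKOV3 and 9.94, 9.91 and 9.85 on those labelled untransfected PC3, the reverse of these lines with miR-NC. HOXC6 read 5.98, 5.79 and 5.85 on the arrays labelled untransfected PC3, 14.1-fold below PC3 with miR-NC (adjusted p = 2.7e-21). HOTAIR stood at 2.48, 2.37 and 2.39 there, against a mean of 7.66 with miR-NC. HOXA2 read 4.15, 3.91 and 4.25 on the arrays labelled untransfected HEY, under the floor and at least 8.33-fold below HEY with miR-NC (adjusted p = 6.7e-24). HOXB1, HOXB3 and HOXC8 lay above every transfected array on the arrays labelled untransfected HEY by their brightest probe sets. The other HOXB1 probe set (3.21) lay below all its transfected group means there. That of HOXB3 (5.93) lay inside the range of its transfected group means. HOXD11 (mean 5.41) lay above every transfected array on the arrays labelled untransfected PC3, through which alone it passed the filter.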

How the data were processed

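RNA was hybridised to 45 Affymetrix arrays of 54675 probe sets. The deposited table holds log2 values made by the authors with RMA, per the submitters' processing notes, and whether all arrays were normalised together is not given in the sources used here. Probe sets with 1 gene symbol (41097) were kept, with the brightest per gene, and a gene was tested if its highest group mean exceeded the median of all values (4.89), which left 15599 genes. limma 3.58.1 in R 4.3.3 fitted 15 group means (30 residual degrees of freedom, 5.24 prior), with Benjamini-Hochberg adjustment over all genes tested and a threshold of 0.05. Differences between lines were tested by a moderated F-test. The fit was tested on simulated data. The number of arrays limits the precision. Array medians ran from 4.49 to 4.98 and correlations within groups from 0.969 to 0.9966.

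Per-array levels are given for all members called between lines with at least a 4-fold difference and no overlap. They are also given for members called with a precursor at 2-fold without overlap, up to 4 higher and 4 lower in each precursor comparison. Up to 3 called genes of each other list were eligible to be named. Further values, such as those of the other probe sets, of untransfected arrays and of changes below these sizes, were chosen after their values were seen. Members and lists were chosen with earlier results of these data known. Alternatives changed the normalization, the filter, the probe set, the fold minimum, the samples fitted and the block, and left out each array.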

Additional observations from a re-analysis of the deposited data

Results flagged for a closer look

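The responses below differed between HEY, SKOV3 and PC3 by a moderated F-test in the limma fit across all genes, with Benjamini-Hochberg adjusted p-values, and each value is a log2 difference of 3 precursor arrays from 3 miR-NC arrays. Genes were tested here because they changed at least 2-fold in 1 of the lines, so that their direction there is not independent support.

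With miR-205, 9 of the named members differed. HOXB5 moved by 1.24 in HEY, -0.03 in SKOV3 and -0.57 in PC3 (adjusted p = 2.5e-11), HOXB7 by 1.03 in HEY, 0.23 in SKOV3 and -0.03 in PC3 (adjusted p = 0.0042), and HOXB2 by -1.90 in HEY, -0.13 in SKOV3 and -0.49 in PC3 (adjusted p = 3.2e-09). HOXB5 and HOXB7 rose in HEY, and HOXB2 fell furthest there. HOXC6 moved by -1.63 in HEY, 0.46 in SKOV3 and -0.84 in PC3 (adjusted p = 5.2e-09), HOXD10 by -1.72 in HEY, -0.17 in SKOV3 and 0.45 in PC3 (adjusted p = 5.1e-06), and HOXB8 by -1.18 in HEY, -0.22 in SKOV3 and 0.69 in PC3 (adjusted p = 1.9e-05), with falls in HEY. HOXB6 moved by -0.29 in HEY, -1.05 in SKOV3 and -0.74 in PC3 (adjusted p = 1.1e-04), HOXA2 by -0.54 in HEY, 0.05 in SKOV3 and -1.27 in PC3 (adjusted p = 2.2e-06), and HOXD8 by -0.77 in HEY, 0.26 in SKOV3 and 1.28 in PC3 (adjusted p = 9.3e-08).

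With miR-429, HOXC6 moved by -1.90 in HEY, 0.15 in SKOV3 and 0.05 in PC3 (adjusted p = 1.6e-09), HOXD9 by -1.82 in HEY, -0.12 in SKOV3 and -0.98 in PC3 (adjusted p = 8.9e-09), HOXD10 by -1.61 in HEY, -0.10 in SKOV3 and -0.31 in PC3 (adjusted p = 5.8e-04), and HOXB8 by -1.40 in HEY, -0.25 in SKOV3 and 0.17 in PC3 (adjusted p = 1.7e-04). All of them fell in HEY. HOXD1 moved by 0.06 in HEY, 1.34 in SKOV3 and -0.16 in PC3 (adjusted p = 1.9e-04), and HOXD4 by -0.99 in HEY, -0.45 in SKOV3 and -1.26 in PC3 (adjusted p = 0.037). HOXC8 also met the threshold (adjusted p = 0.018), but its means in all transfected groups lay between 2.10 and 3.93, under the floor of 4.89, so no response is read from it. The line difference of HOXB13, -0.46 in HEY, -0.45 in SKOV3 and -1.19 in PC3 (adjusted p = 0.063), was not called.

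With miR-203a, HOXD1 moved by 0.09 in HEY, 1.05 in SKOV3 and 0.12 in PC3 (adjusted p = 0.017), HOXB13 by -0.28 in HEY, -0.31 in SKOV3 and 1.63 in PC3 (adjusted p = 4.0e-06), HOXD4 by -0.22 in HEY, 0.21 in SKOV3 and -1.67 in PC3 (adjusted p = 4.0e-06), and HOXC6 by -0.65 in HEY, -0.00 in SKOV3 and -1.23 in PC3 (adjusted p = 2.2e-04). HOXD1 rose in SKOV3, and the other members changed by at least 2-fold in PC3 alone. Values of HOXC6 and HOXD10 in SKOV3, of HOXB7, HOXB8, HOXD9 and HOXD10 in PC3, of HOXD1 in HEY and PC3, of HOXA2 with miR-205 in SKOV3 and of HOXB13 in HEY come from means under that floor on both sides. The values of HOXB8, HOXD10 and HOXD4 rest on their brightest probe sets.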

How the results depend on the processing

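Of 992 values of named members under alternative settings, 978 kept their direction and call, among them all 318 that left out 1 array, 5 lost the call and 9 reversed. The reversals came with another probe set of the gene: HOXB8 with miR-205 (0.33) and miR-429 (0.25) in HEY, also without _x_at and _s_at probe sets, HOXD13 in SKOV3 (1.81) and PC3 (0.46) against HEY, HOXD4 in SKOV3 against HEY (0.95) and with miR-203a in PC3 (0.30), and HOXD10 with miR-429 in HEY (0.40), and the cause was not tested. The comparisons with other probe sets, and those of the lines on arrays of another precursor, were chosen after seeing the data.

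Among counts of called members, SKOV3 against HEY gave 11 with a stricter filter, by which fewer genes were tested. With the mean of probe sets, SKOV3 with miR-205 gave 8 and with miR-429 gave 4. Without _x_at and _s_at probe sets the counts were 1 for HEY with miR-203a, 9 for HEY with miR-205, 1 for SKOV3 with miR-429, 9 for PC3 with miR-203a and 11 for the difference between lines with miR-205. With a 2-fold minimum the counts for miR-203a, miR-205 and miR-429 were 0, 8 and 4 in HEY, 1, 1 and 1 in SKOV3 and 3, 2 and 3 in PC3, with 13 for SKOV3 miR-NC against untransfected and 3 for PC3 miR-205 against miR-203a. A separate fit for each line gave 8, 8 and 6 in SKOV3, and the cause was not tested. Shares of all genes under these settings are not given here.

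Leaving out 1 array gave 17 to 19 for SKOV3 against HEY, 23 to 24 for PC3 against HEY and 18 to 20 for PC3 against SKOV3. For miR-203a, miR-205 and miR-429 it gave 3 to 4, 14 to 16 and 12 to 14 in HEY, 2 to 3, 3 to 3 and 1 to 3 in SKOV3, and 12 to 14, 7 to 10 and 10 to 13 in PC3. It gave 19 to 21, 19 to 21 and 22 to 25 against the untransfected arrays of HEY, SKOV3 and PC3, 11 to 15, 15 to 17 and 13 to 17 for the difference between lines with each miRNA, and 8 to 10 for PC3 miR-205 against miR-203a.

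Arrays with the same replicate number showed no strong shared deviation (90 pairs, correlations from -0.16 to 0.22, median 0.01, 11 over 0.1). The numbers were therefore not used to pair the samples in the main fit. Such correlations cannot show whether same-numbered arrays share a culture or run, which the labels do not say. With the replicate block the counts were 19, 24 and 19 between lines, 4, 15 and 14 in HEY, 4, 4 and 2 in SKOV3, 14, 9 and 12 in PC3, 21, 20 and 24 against untransfected arrays, 10 for PC3 miR-205 against miR-203a, and 13, 16 and 17 for the difference between lines, and it changed no call of a named member. Probe sets near the floor limit what can be read as a fold.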
